A study of Homo sapiens with 6 samples.

Results

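The genes described here encode the subunits of condensin I and condensin II. The 8 members were taken by name, as the subunits of both complexes: the shared subunits SMC2 and SMC4, the condensin I subunits NCAPD2, NCAPG and NCAPH, and the condensin II subunits NCAPD3, NCAPG2 and NCAPH2. All 8 were among the 16834 genes of the deposited table. RNA was sequenced from 3 Flag-IPs and 3 HA-IPs of asynchronously growing HEK293-T Flp-In cells, an epithelial-like line derived from human embryonic kidney. Each cell carried a single inserted copy of ccTaggedRP, a construct driven by the CAG promoter that encodes both tagged forms of the ribosomal protein RPL10a. The Flag form is fused to a degron from CDT1 and the HA form to a degron from geminin, so that the Flag form is meant to be lost from late S phase through mitosis and the HA form in late G1 and early S phase. The Flag-IPs were meant to recover RNA bound to ribosomes with the Flag form, and the HA-IPs RNA bound to ribosomes with the HA form. No IP from cells without the tags was among the libraries, so RNA recovered without a tag was not measured. Both groups came from this 1 line, which the paper kept in medium with hygromycin B, without other treatment. No input RNA was analysed here. The labels number the libraries 1 to 3 in each group and do not say whether these came from separate cultures, so p-values measure the spread between these libraries, which may be technical.

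Condensin is a ring-shaped ATPase that folds chromatin into loops and gives mitotic chromosomes their compact, stiff form. SMC2 and SMC4 are the ATPase arms of both complexes, a kleisin subunit (NCAPH or NCAPH2) closes the ring, and a pair of HEAT-repeat subunits (NCAPD2 and NCAPG, or NCAPD3 and NCAPG2) binds the kleisin and DNA. Condensin II stays in the nucleus through interphase and starts to act in prophase, while condensin I is mostly cytoplasmic until the nuclear envelope breaks down.

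Several genes used in mitosis carry a CHR element, a CCAAT box or an E2F site near their start, so the member promoters were searched for these letters. RefSeq (GRCh38.p14) gave 10 windows for 7 members, each from 250 bases before to 50 bases after a start. NCAPH2 had no window. The stretches below are shown because they hold a match within 150 bases before the start and because the counts of these genes are compared in the results. Parts annotated as untranslated on either strand were left out, which removed the matches of SMC2 and NCAPD3. Capitals mark TTTGAA (CHR) and CCAAT, read on either strand, so that TTCAAA and ATTGG are the same letters on the other strand.
SMC4 (chr3:160399545-160399637, plus strand): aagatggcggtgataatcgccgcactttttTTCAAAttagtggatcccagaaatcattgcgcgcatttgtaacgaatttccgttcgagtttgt
NCAPD2 (chr12:6493952-6494092, plus strand): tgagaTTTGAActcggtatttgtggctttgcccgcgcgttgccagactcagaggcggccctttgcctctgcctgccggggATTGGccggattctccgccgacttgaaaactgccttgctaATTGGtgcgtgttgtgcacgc
NCAPG (chr4:17810829-17810978, plus strand): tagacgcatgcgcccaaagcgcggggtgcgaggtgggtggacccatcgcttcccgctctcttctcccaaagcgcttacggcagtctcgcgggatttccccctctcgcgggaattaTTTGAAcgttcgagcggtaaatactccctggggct
NCAPH (chr2:96335616-96335765, plus strand): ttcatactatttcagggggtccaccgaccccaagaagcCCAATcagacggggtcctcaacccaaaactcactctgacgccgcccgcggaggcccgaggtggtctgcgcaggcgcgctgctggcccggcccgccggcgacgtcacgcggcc

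The letters TTTGAA were found in 6 of the 10 member windows, those of SMC2, SMC4, NCAPD2, NCAPG, NCAPD3 and NCAPG2, against 15.2% of all 35116 windows of this length. The match began 75 bases before the start in SMC4, 145 in NCAPD2 and 35 in NCAPG. In SMC2 and NCAPD3 it began 3 bases before the start, and in NCAPG2 it lay after the start. CCAAT was present in 3 member windows, of NCAPD2, NCAPH and NCAPD3, and in 34.6% of all windows. NCAPD2 held 4 such matches and NCAPD3 held 2. An E2F site (TTTCGCGC, TTTGGCGC, TTTCCCGC or TTTGCCGC) was present in the NCAPD3 window and in 3.31% of all windows. The variant TTCGAA was in 0 member windows and in 1.45% of all. A match describes the letters only, and the data hold no measurement of binding.

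The libraries held 23174532 to 44134833 reads on the listed genes. The values are normalized counts, that is reads per gene over a size factor of each library. The libraries labelled Flag 3 and HA 3 lay nearer to the other group than their replicates did in a list of heart muscle markers. Of 20 such genes, 16 were in the table and all 16 were called higher in the Flag-IPs. Their sum was 202486, 148262 and 96995 normalized counts in Flag 1, 2 and 3, and 3113, 1838 and 18698 in HA 1, 2 and 3. CSRP3 was at 0 in some HA-IPs. Fibroblast markers summed to 4874 to 7456 in the Flag-IPs and 1528 to 2124 in the HA-IPs, with 5 of the 6 in the table called higher in the Flag-IPs. Endothelium markers summed to 127 to 216 in the Flag-IPs and 50.7 to 69.2 in the HA-IPs, with 3 of the 4 in the table called. The part of these cell type markers in the condensin difference below was not tested.

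The mRNAs of most, not all, condensin subunits were slightly higher in the HA-IPs. Of the 8 members, 5 rose in the HA-IPs (SMC4, NCAPD2, NCAPH, NCAPD3 and NCAPG2) and 0 fell, at log2 fold changes of 0.22 to 0.25, or 1.16-fold to 1.19-fold. SMC2, NCAPG and NCAPH2 did not pass the test. The background was 5.79% of all 16834 genes called higher in the HA-IPs and 7.10% in favour of the Flag-IPs, in limma at a Benjamini-Hochberg adjusted p of at most 0.05 (two-sided). The fold changes compare HA-IPs with Flag-IPs on log2(normalized counts + 1). The median over the 8 members was 0.22, and it was -0.0049 over all genes. With quantile normalization these medians were 0.13 and 0.044, and with the same total per library 0.17 and -0.057. An unadjusted p under 0.05 in limma was reached by 7 members, beside 4587 of all 16834 genes. These are bulk libraries from IPs. Differences in the number of cells that hold a tagged form, in mRNA per cell and in binding to tagged ribosomes cannot be told apart. A difference in RNA recovered without a tag, which was not measured, cannot be told apart from these either.

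Both SMC ATPases had higher values in every HA-IP, but SMC4 alone passed the test. SMC4 (ENSG00000113810, GRCh38 chr3:160399274-160434954, plus strand) had 8375, 8541 and 9472 normalized counts in Flag 1, 2 and 3, and 10102, 10356 and 10410 in HA 1, 2 and 3. The lowest HA-IP lay above the highest Flag-IP, and Flag 3 was closest to the HA-IPs. The log2 fold change of SMC4 was 0.23 (standard error 0.054, 95% interval 0.11 to 0.35, adjusted p = 0.019 from limma). SMC2 (ENSG00000136824, chr9:104094260-104141419, plus strand) had 4712, 4707 and 5157 in the 3 Flag-IPs, against 5252, 5212 and 5676 in the HA-IPs. The groups of SMC2 were separated by a narrow margin, between Flag 3 and HA 2. Its log2 fold change was 0.15 (standard error 0.055, 95% interval 0.026 to 0.27, adjusted p = 0.11 from limma), which missed the threshold. The difference between SMC4 and SMC2 was not tested. With quantile normalization SMC4 was at 0.16 and not called, and with the same total per library SMC2 was at 0.094.

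Among the condensin I subunits, NCAPD2 and NCAPH rose in the HA-IPs and NCAPG missed the threshold. NCAPD2 (ENSG00000010292, chr12:6493356-6531955, plus strand), a HEAT-repeat subunit, had 18355, 18613 and 20186 normalized counts in the 3 Flag-IPs, against 22332, 21901 and 22228 in the HA-IPs. The HA-IPs of NCAPD2 lay close together (SD 225), whereas Flag 3 stood above the other Flag-IPs. The log2 fold change was 0.22 (standard error 0.050, 95% interval 0.11 to 0.33, adjusted p = 0.016 from limma). NCAPG (ENSG00000109805, chr4:17810979-17844865, plus strand), the other HEAT-repeat subunit of condensin I, had 4722, 4596 and 4698 in the 3 Flag-IPs, against 5380, 4815 and 5452 in the HA-IPs. HA 2 was low for NCAPG and lay just above Flag 1. Its log2 fold change was 0.16 (standard error 0.055, 95% interval 0.036 to 0.28, adjusted p = 0.087 from limma). NCAPH (ENSG00000121152, chr2:96335766-96377091, plus strand), the kleisin that closes the condensin I ring, had 4569, 4876 and 4790 in the 3 Flag-IPs, against 5446, 5570 and 5642 in the HA-IPs. The gap between its groups, from Flag 2 to HA 1, was wider than the range within either group. The log2 fold change of NCAPH was 0.23 (standard error 0.047, 95% interval 0.12 to 0.33, adjusted p = 0.011 from limma). With quantile normalization NCAPD2 was at 0.12 and not called, and with the same total per library NCAPG was at 0.10.

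Among the condensin II subunits, NCAPD3 and NCAPG2 rose in the HA-IPs, while the groups of NCAPH2 overlapped. NCAPD3 (ENSG00000151503, chr11:134150113-134225504, minus strand), a HEAT-repeat subunit, had 8965, 8710 and 9271 normalized counts in the 3 Flag-IPs, against 10691, 10314 and 10440 in the HA-IPs. All HA-IPs of NCAPD3 were well above the highest Flag-IP, Flag 3. The log2 fold change was 0.22 (standard error 0.046, 95% interval 0.12 to 0.32, adjusted p = 0.010 from limma). NCAPG2 (ENSG00000146918, chr7:158631169-158704804, minus strand), the other HEAT-repeat subunit of condensin II, had 6827, 6738 and 7500 in the 3 Flag-IPs, against 8170, 8371 and 8561 in the HA-IPs. Flag 3 was again the highest of its group. NCAPG2 had the largest log2 fold change of the 8 members, 0.25 (standard error 0.052, 95% interval 0.14 to 0.37, adjusted p = 0.010 from limma). NCAPH2 (ENSG00000025770, chr22:50508224-50524780, plus strand), the kleisin of condensin II, had 3434, 3749 and 3749 in the 3 Flag-IPs, against 3793, 3606 and 3624 in the HA-IPs. HA 2 and HA 3 lay below Flag 2 and Flag 3. Its log2 fold change was 0.013 (standard error 0.053, 95% interval -0.10 to 0.13, adjusted p = 0.91 from limma), and its sign turned with quantile normalization, with the same total per library, and without Flag 1 or HA 1.

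**Figure D1:**
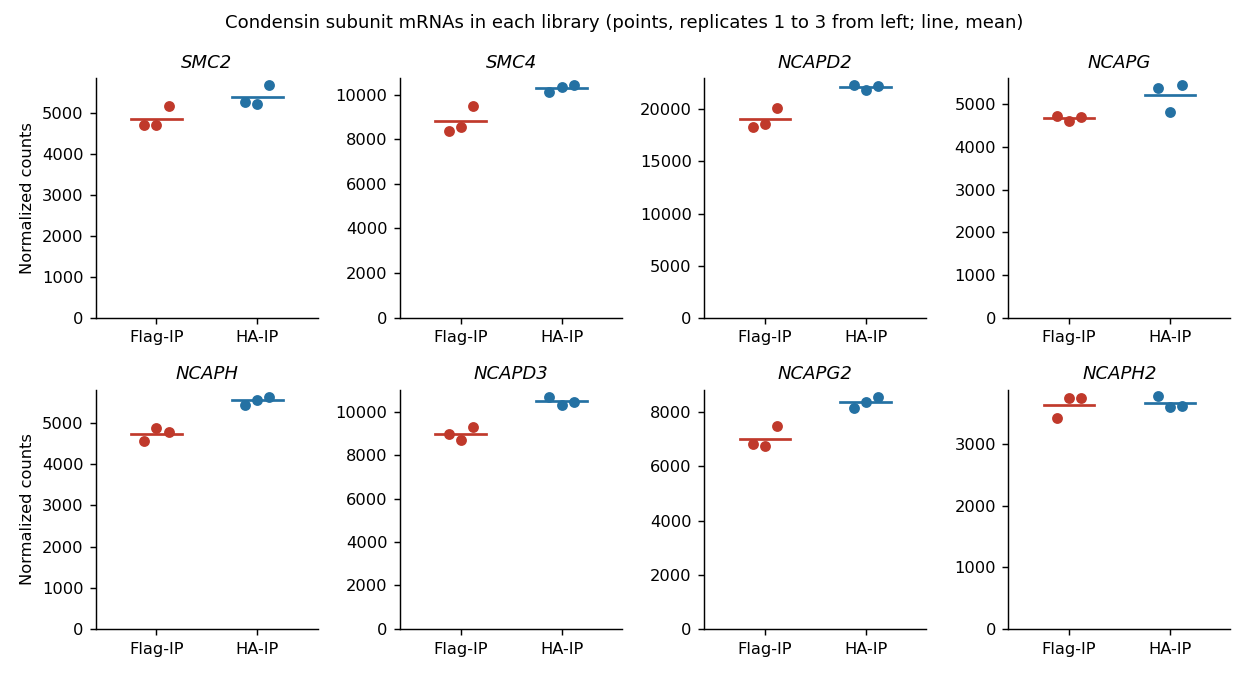
Normalized counts (y axis, from 0) of the 8 condensin subunit mRNAs in each of the 3 Flag-IPs (red) and 3 HA-IPs (blue), with a line at each group mean. In 7 of the 8 panels every blue point lies above every red point, and in NCAPH2 the groups overlap.

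The HA-IPs all exceeded the Flag-IPs in 7 of the 8 members, all but NCAPH2, against 16.1% of all genes. The reads behind 1 member in 1 library ranged from 2644 (NCAPH2 in Flag 1) to 31648 (NCAPD2 in HA 1). At the lowest read number of each member, counting error amounted to 0.841 to 1.94% of the value, and the coefficient of variation between replicates was 1.02 to 6.72%. For most members the spread between libraries was therefore larger than the counting error. All 8 members together took 0.199, 0.202 and 0.210% of the reads in Flag 1, 2 and 3 and 0.229, 0.223 and 0.227% in HA 1, 2 and 3. The HA-IPs lay above the Flag-IPs in this share as well, which uses no size factor.

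Within the groups, Flag 3 was the highest Flag-IP for 5 members and the lowest for 0, beside 35.2% and 35.7% of all genes. NCAPG was highest in Flag 1, and NCAPH and NCAPH2 were highest in Flag 2. HA 3 was the highest HA-IP for 5 members and the lowest for 0, beside 36.5% and 32.6% of all genes, and HA 2 was the lowest for 5 members, beside 32.5%. No test was made of these counts. The mean over the members of the log2 value, each centred on its own mean over the 6 libraries, was -0.13, -0.11 and -0.031 in Flag 1, 2 and 3 and 0.093, 0.066 and 0.12 in HA 1, 2 and 3. Flag 3 was thus the Flag-IP nearest to the HA-IPs for condensin, as it was for the heart muscle markers, whereas HA 3 was the HA-IP farthest from the Flag-IPs for condensin and the nearest for the markers.

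The calls depended on which libraries entered the fit. Without Flag 3, 6 members were called, SMC2 being added (log2 fold change 0.19, adjusted p = 0.025 from limma, over a range of 0.025 to 0.32 across all settings). Without Flag 1 the same 5 members remained. Only NCAPH was called without Flag 2, and only NCAPD3 without HA 2. Without HA 1 the called members were NCAPG2 and NCAPH, and without HA 3 they were NCAPD3, NCAPG2 and NCAPH. The number of all 16834 genes called higher in the HA-IPs moved as well, from 975 with all libraries to 873, 103 and 1550 without Flag 1, 2 or 3 and to 225, 268 and 319 without HA 1, 2 or 3. NCAPH passed in 5 of the 6 fits, NCAPD3 and NCAPG2 in 4, SMC4 and NCAPD2 in 2, SMC2 in 1, and NCAPG and NCAPH2 in 0. The fold changes moved less than the calls: the 5 called members stayed between 0.19 and 0.30 in all 6 fits, and the median over all members between 0.19 and 0.24. Without the variance trend in limma 0 members passed, although 5 had an unadjusted p under 0.05, beside 3883 of all 16834 genes. On the recovered reads, edgeR and DESeq2 each called the same 5 members as limma with the trend. Of all 16834 genes, edgeR called 901 and DESeq2 1044 higher in the HA-IPs.

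**Figure D2:**
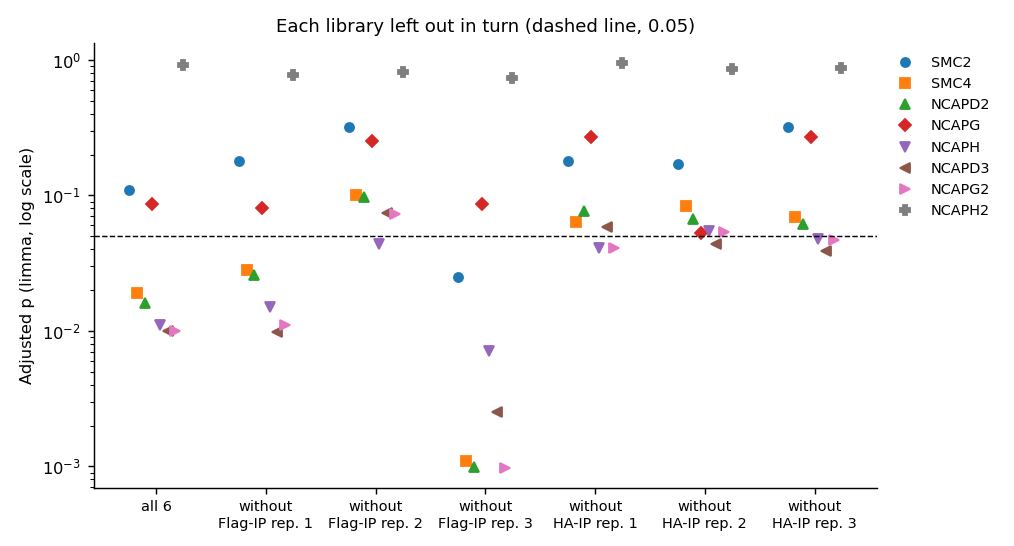
Adjusted p from limma (y axis, log scale) of each condensin member with all 6 libraries and with each library left out (x axis), with a dashed line at 0.05. The members called fell to 1 without Flag-IP replicate 2 or HA-IP replicate 2 and reached 6 without Flag-IP replicate 3.

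Levels of different subunits were compared per kilobase of the Ensembl canonical transcript. On this scale NCAPD2 was the highest, with 3949 ± 205 normalized counts per kilobase in the Flag-IPs and 4591 ± 46.7 in the HA-IPs (SD, n = 3 each). NCAPG2 followed at a mean of 1900 ± 196 over all 6 libraries (SD) and SMC4 at 1865 ± 177, and their values overlapped in both groups, with NCAPG2 above SMC4 in 5 of 6 libraries. NCAPD3 was next at 1321 ± 115, below SMC4 and above NCAPH2 in all 6 libraries. NCAPH2 (1097 ± 40.0) and NCAPG (1078 ± 81.3) could not be ordered, each being the higher in 3 of 6 libraries. NCAPG lay above SMC2 in all 6 libraries, and SMC2 (864 ± 61.9) and NCAPH (854 ± 76.0) overlapped again. The order depends on the transcript length used: with the union of all annotated exons, NCAPD3 dropped from 1321 to 520.5, the lowest of the 8, because its union of exons (18698 bases) is longer than its canonical transcript (7369 bases). With that length the mean of SMC4 (1169) also lay above that of NCAPG2 (1083), and NCAPG (1020) above NCAPH2 (821).

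**Figure D3:**
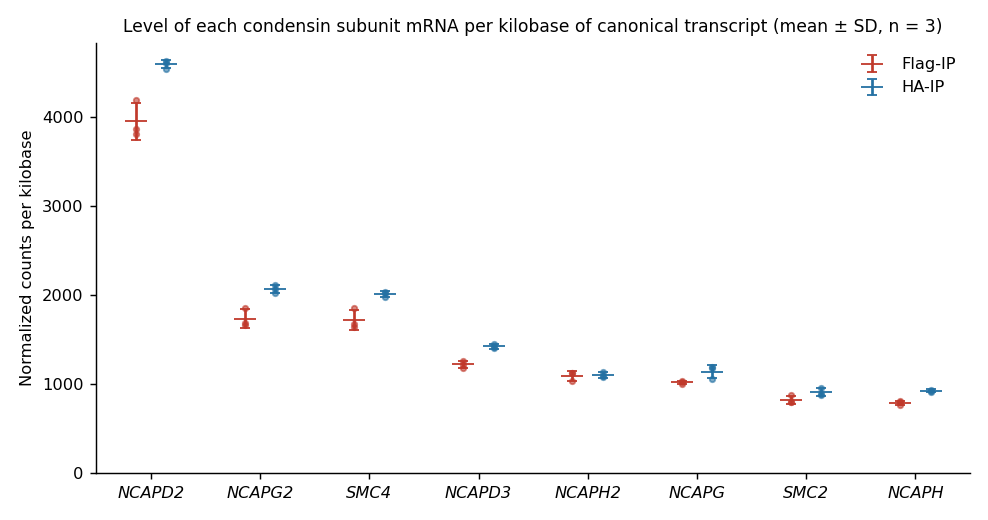
Level of each condensin subunit mRNA in normalized counts per kilobase of canonical transcript (y axis, from 0), ordered by the mean over all libraries, with bars at the mean ± SD of the 3 Flag-IPs (red) and 3 HA-IPs (blue) and points for the libraries. NCAPD2 stands above the other 7, which lie between about 758 and 2114.

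Ratios between subunits within a library use no size factor. The ratio of NCAPH to NCAPH2, the kleisins of condensin I and II, was 0.736, 0.720 and 0.707 per kilobase in Flag 1, 2 and 3 and 0.795, 0.855 and 0.861 in HA 1, 2 and 3. It was therefore higher in every HA-IP than in any Flag-IP, with means of 0.837 ± 0.037 and 0.721 ± 0.015 (SD, n = 3 each). The 2 other condensin II subunits, both called above, were higher relative to NCAPH2 in every HA-IP. NCAPD3 over NCAPH2 was 1.05 to 1.18 in the Flag-IPs and 1.28 to 1.30 in the HA-IPs. NCAPG2 over NCAPH2 was 1.48 to 1.65 and 1.77 to 1.95. The HEAT-repeat counterparts did not separate the groups. NCAPD2 over NCAPD3 was 3.24 ± 0.10 in the Flag-IPs and 3.23 ± 0.033 in the HA-IPs, and NCAPG over NCAPG2 was 0.589 ± 0.031 and 0.550 ± 0.038 (SD, n = 3 each). SMC4 over SMC2 was 2.10 ± 0.035 and 2.22 ± 0.089, with overlap. The summed level of the 3 condensin I subunits over that of the 3 condensin II subunits was 1.42 to 1.43 in the Flag-IPs and 1.43 to 1.46 in the HA-IPs, without overlap but with means that differed little (1.42 ± 0.0051 and 1.45 ± 0.014, SD, n = 3 each). The ratios over NCAPH2 restate the log2 fold changes above, 0.013 for NCAPH2 and 0.23, 0.22 and 0.25 for NCAPH, NCAPD3 and NCAPG2. The sum of condensin II holds NCAPH2 too. These ratios therefore add no separate result. They were not set beside the share over other gene pairs, and no test was made of them.

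**Figure D4:**
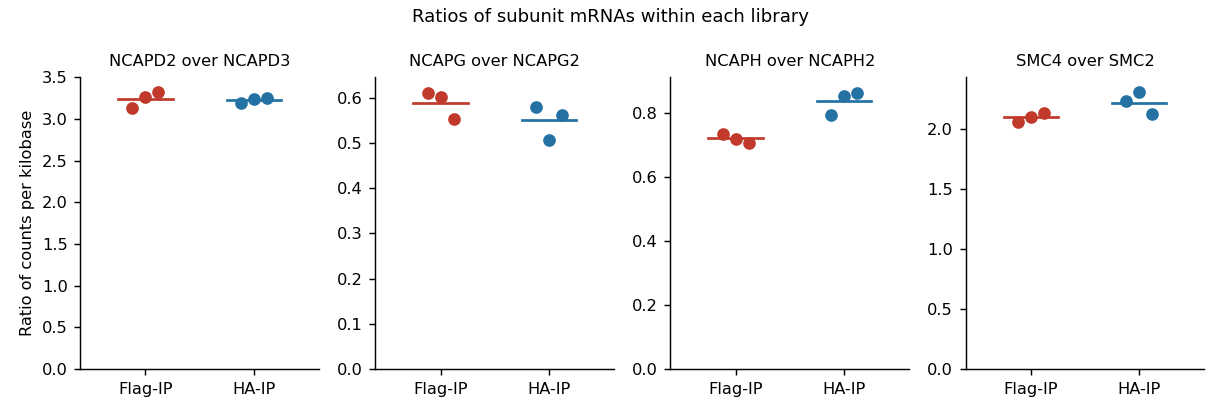
Ratio of normalized counts per kilobase between paired subunits within each library (y axes, from 0), for 3 Flag-IPs (red) and 3 HA-IPs (blue), with a line at each mean. Only in NCAPH over NCAPH2, at 0.707 to 0.736 against 0.795 to 0.861, do the groups of the 4 plotted ratios not overlap.

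Reads could be shared with other genes at some members, as the sources used here do not say whether reads were counted by strand. Exons of SMC4 share 1553 bases with TRIM59 and 243 with IFT80 on the other strand, NCAPD2 shares 383 with MRPL51, NCAPG shares 1634 with LCORL, and NCAPD3 shares 1889 with JAM3 and 249 with VPS26B. These 6 genes had means of 353 to 1732 normalized counts, and none was called by limma, with log2 fold changes of -0.28 (MRPL51, adjusted p = 0.086) to 0.11 (JAM3, adjusted p = 0.32). NCAPH2 shares 857 exon bases with SCO2 on the other strand, which was not analysed here, and 855 with a long noncoding RNA gene (ENSG00000272821) on its own strand, which averaged 88.7 (Flag-IPs) and 110 (HA-IPs) normalized counts. GC content of the canonical transcript ranged from 36.6% in SMC4 to 61.3% in NCAPH2. After trends with GC content and length were removed, the same 5 members were called in limma, but at smaller fold changes. The log2 fold changes were 0.17 for NCAPD3, 0.18 for NCAPD2 and NCAPH, 0.22 for SMC4 and 0.23 for NCAPG2. The median over the 8 members was 0.17 and that over all genes 0.0027. The log2 fold change of NCAPH2 was 0.0076 (adjusted p = 0.94 in limma, range over all settings 0.68 to 0.95).

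Of 15 partners and regulators of condensin, 14 were in the table, and 4 rose in the HA-IPs while 0 fell. The background was again 5.79% of all genes for the HA-IPs. TOP2A, the topoisomerase that acts with condensin on mitotic chromosomes, had 41413, 41019 and 45474 normalized counts in the 3 Flag-IPs, against 50213, 50174 and 51930 in the HA-IPs. Its lowest HA-IP was above its highest Flag-IP, and its log2 fold change was 0.25 (limma, adjusted p = 0.012). KIF4A, a chromokinesin that works beside condensin in shaping chromosome arms, had a log2 fold change of 0.24 (limma, adjusted p = 0.015). TTK, a spindle checkpoint kinase, had 0.26 (adjusted p = 0.0097 from limma), and CCNB1, the cyclin of the mitotic kinase CDK1, had 0.20 (adjusted p = 0.023 from limma). CDK1, which phosphorylates condensin at mitotic entry, had 0.17 and its groups overlapped (adjusted p = 0.20 from limma). AURKB, which phosphorylates condensin I subunits, had 0.16 (adjusted p = 0.067 from limma), and PLK1, which acts on condensin II, had 0.072 (adjusted p = 0.32 from limma). With quantile normalization TOP2A fell to 0.11 and CCNB1 to 0.13, and neither was called. After GC and length trends were removed, 6 partners were called, with CDK1 at 0.26 and AURKB at 0.28 added. Genes called higher in the HA-IPs rose there too, to 1153 of 16683 from 975 of 16834. CDK1 ran from 0.094 without Flag 3 to 0.27 without Flag 1, where it was called.

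The other partners did not pass the test either. TOP2B, the second topoisomerase of this type, had a log2 fold change of 0.18 (limma, adjusted p = 0.051). MKI67, which coats mitotic chromosomes, had 0.19 (adjusted p = 0.088 from limma), with overlapping groups. MCPH1, an inhibitor of condensin II, had 0.18 (adjusted p = 0.089 from limma), and KMT5A, the methyltransferase of a histone H4 mark, had 0.061 (adjusted p = 0.61 from limma). AKAP8, an anchor protein of chromatin, had 0.066, NUSAP1, a spindle protein, had 0.018 and CSNK2A1, a catalytic subunit of casein kinase, had 0.016 (adjusted p = 0.46, 0.87 and 0.86 from limma). All 14 had a positive fold change with a median of 0.18, beside 8257 of all 16834 genes with a positive one. NUSAP1 and CSNK2A1 turned negative with quantile normalization and with the same total per library, and PLK1 with quantile normalization. With quantile normalization 11 of the 14 were positive, beside 9971 of all genes. Partners called numbered 5 without Flag 1, 6 without Flag 3, 2 without HA 1, and 1 (TTK) without Flag 2, HA 2 or HA 3.

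Cohesin and the SMC5/6 complex are the other rings built on SMC ATPases, cohesin holding sister chromatids together and SMC5/6 acting in DNA repair. Of their 11 subunits, 2 were called higher in the HA-IPs and 1 higher in the Flag-IPs, beside 5.79% and 7.10% of all genes, so that 1 of 11 is near the background. Their median log2 fold change was 0.14, and that of condensin 0.22. SMC3 of cohesin had 8552, 8408 and 8910 normalized counts in the 3 Flag-IPs, against 9427, 9921 and 10275 in the HA-IPs, a log2 fold change of 0.19 (limma, adjusted p = 0.025). The other 4 cohesin subunits measured, SMC1A, RAD21, STAG1 and STAG2, had 0.12 to 0.14 and did not pass (adjusted p = 0.079 to 0.18 from limma), and SMC1A turned negative with quantile normalization. In the SMC5/6 complex, NSMCE4A rose (0.36, adjusted p = 0.028 from limma) and NSMCE1 fell in the HA-IPs (-0.30, adjusted p = 0.046 from limma). SMC5, SMC6, NSMCE2 and NSMCE3 had 0.11 to 0.28 without passing. After GC and length trends were removed, NSMCE1 was at -0.15 and not called, and NSMCE2 was called at 0.40. NSMCE1 was not called with quantile normalization, with a replicate block or without the variance trend either, and in 1 of the 6 fits with a library left out it passed. NSMCE4A was not called with a replicate block, without the variance trend, or without Flag 2, HA 1 or HA 2. SMC3 was at 0.12 with quantile normalization and not called. Of the 11 subunits, 3 were called without Flag 1, 7 without Flag 3, 1 without HA 1 or HA 3, and 0 without Flag 2 or HA 2. All genes called in limma moved as well, from 2171 to 2009, 620 and 3059 without Flag 1, 2 or 3. Without HA 1, 2 or 3 they numbered 780, 900 and 1216. An unadjusted p under 0.05 in limma was reached by 5 subunits without Flag 2 and 8 without HA 2, beside 3516 and 3680 of all genes. On all libraries edgeR and DESeq2 each called 3 subunits, beside 2131 and 2274 of all 16834 genes. Whether condensin differs from these complexes was not tested, so the counts stand side by side only.

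**Figure D5:**
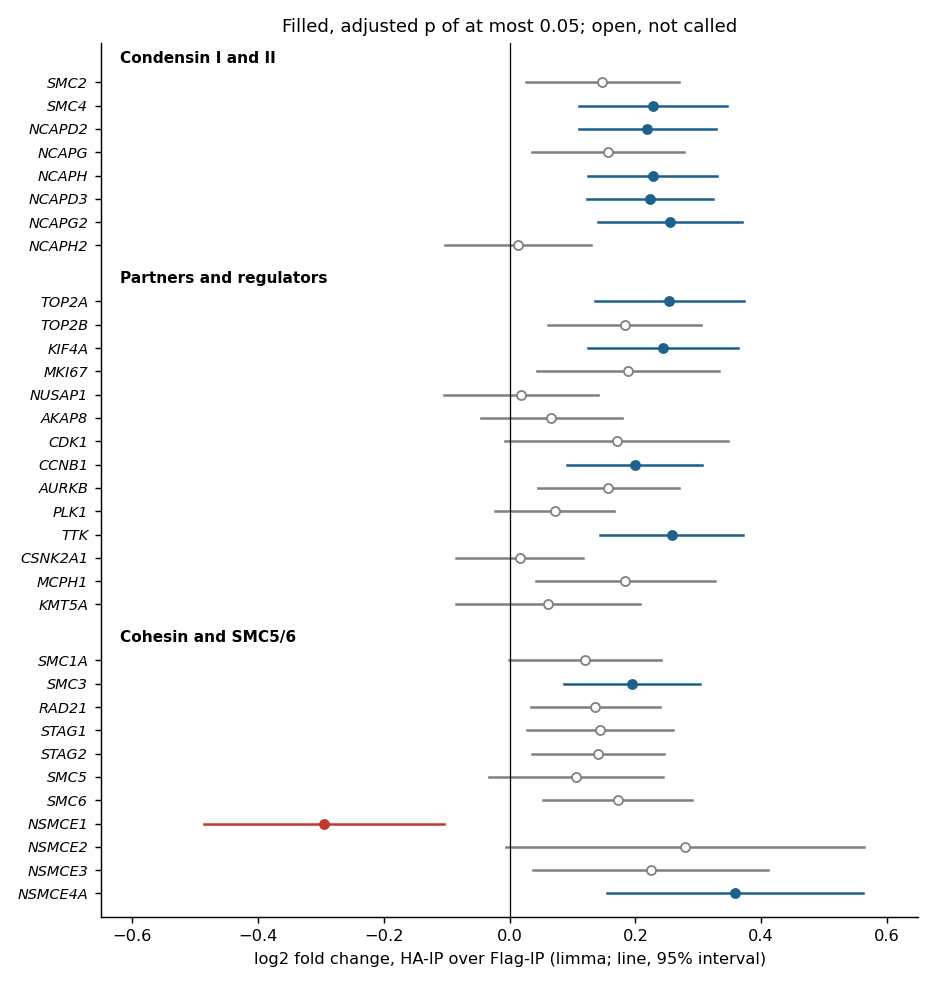
HA-IP to Flag-IP log2 fold change (x axis) with its 95% interval from limma, for condensin, its partners and the other SMC complexes, with filled points at an adjusted p of at most 0.05. Of the 8 condensin members 5 are filled, and NCAPH2 sits at 0.013, where its sign turns with quantile normalization, with the same total per library, and without Flag 1 or HA 1.

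The genes whose pattern over the 6 libraries was most like the mean pattern of the 8 members were CASK, CAPRIN1, BRIP1, SLC6A15 and MYO6. They were ranked among 8208 genes with a symbol and a mean of at least 500 normalized counts, by the root mean square difference of centred log2 values, which was 0.0106 to 0.0131 for these 5. The members themselves lay at 0.0235 (NCAPD2) to 0.0946 (NCAPH2) from their own mean. CASK had 4292, 4312 and 4564 normalized counts in the 3 Flag-IPs, against 4950, 4855 and 4978 in the HA-IPs. Because the 5 genes were picked for this pattern, the place of Flag 3 in them is no separate result. BRIP1, a DNA helicase, had 2870, 2881 and 2991 in the 3 Flag-IPs, against 3312, 3265 and 3375 in the HA-IPs. The likeness is a description over libraries that share their scaling.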

How the data were processed

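RNA of 3 Flag-IPs and 3 HA-IPs was selected for poly(A) and sequenced from both ends. Per the labels, the authors' processing notes list Trimmomatic 0.36, STAR 2.5.2b, featureCounts of Subread 1.5.2, DESeq2 (listed as 3.16) and GRCh38. Genes with few reads were excluded by the authors, and every gene of the table had at least 10 reads in 3 or more libraries. The authors deposited a signal per library, read counts divided by a DESeq2 size factor, beside a log2 fold change and an adjusted p-value from their DESeq2 comparison, neither of which was used.

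Each value divided by the worth of 1 read came out whole within 0.001 reads in 100% of cases, so reads were recovered for edgeR 4.0.16 and DESeq2 1.42.0. Tests used limma 3.58.1 in R 4.3.3 with a variance trend on log2(normalized counts + 1), two-sided, with Benjamini-Hochberg adjustment over all 16834 genes. As the values were no raw counts, limma took the place of a count test. The scripts were tested on simulated reads with planted log2 fold changes of 0.5 and 1 in either direction. These are larger than the fold changes of the condensin members, so that test does not show how well changes of their size are found. Positions, lengths and GC content came from GENCODE release 44 (GRCh38), where 16683 identifiers (99.1%) were found. Splines for GC content and length used robust regression (MASS 7.3.60.0.1). Plots used Python 3.11.15 and matplotlib 3.10.9.

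The rule for the members uses names only, but the members, the lists of partners, other SMC subunits and cell type markers, and the tests were chosen with earlier results of these data known, so the choice was not independent of the data. The genes named are the members, the genes of the partner and SMC lists, the 5 genes most alike, and genes that overlap a member in the annotation. Of 4 annotated pseudogenes of members, 0 were among the genes tested. Alternatives were other pseudocounts, a filter on low values, quantile, total and upper quartile scaling, edgeR, DESeq2, limma without the trend, a replicate block, each library left out, removal of GC and length trends, a stricter threshold and another length for levels. With 23174532 to 44134833 reads per library, counting error covers counting only and was under 2% for each member.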

Additional observations from a re-analysis of the deposited data

How the results depend on the processing

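The 5 condensin members called in limma (log2 fold changes 0.22 to 0.25) kept a positive fold change in all 18 settings, the main one included. Quantile normalization left 3 members called, with SMC4 at 0.16 (adjusted p = 0.050 in limma) and NCAPD2 at 0.12 (adjusted p = 0.061 in limma). It left 2 partners and 1 subunit of cohesin and SMC5/6, against 4 and 3. All genes called fell as well, from 2171 to 1708, of which 704 were higher in the HA-IPs. Without the variance trend, limma called 0 members, 0 partners and 0 other SMC subunits. An unadjusted p under 0.05 in that limma fit was reached by 5, 7 and 6 of them, beside 3883 of all 16834 genes. edgeR called 5, 4 and 3 of them, beside 2131 of all 16834 genes, and DESeq2 5, 6 and 3, beside 2274. Without the trend SMC4, NCAPD2, NCAPH, NCAPD3 and NCAPG2 were at 0.23, 0.22, 0.23, 0.22 and 0.25 with adjusted p of 0.14, 0.12, 0.11, 0.11 and 0.11 in limma. All genes called numbered 2171, then 188 without the trend and 704 at an adjusted p of at most 0.01, where 0 members, 1 partner and 0 other SMC subunits passed (7, 8 and 8 at an unadjusted p under 0.05). With the same total per library, 471 genes favoured the HA-IPs and 1576 the Flag-IPs among those called, against 975 and 1196. NCAPH2 was at -0.020 with quantile normalization and -0.040 with the same total. Of the other genes, NUSAP1 was at -0.0037 and -0.035, CSNK2A1 at -0.036 and -0.037 in these settings and -0.042 without GC and length trends, and PLK1 and SMC1A were at -0.0003 and -0.0021 with quantile normalization. With each library left out, 620 to 3059 genes, 1 to 6 members, 1 to 6 partners and 0 to 7 other SMC subunits were called. The lowest counts came without Flag 2 and the highest without Flag 3. Fold changes ran from 0.11 to 0.19 for SMC2, 0.19 to 0.28 for SMC4, 0.19 to 0.26 for NCAPD2, 0.12 to 0.21 for NCAPG, 0.20 to 0.25 for NCAPH, 0.20 to 0.25 for NCAPD3, 0.23 to 0.30 for NCAPG2 and -0.029 to 0.034 for NCAPH2. They ran from -0.011 to 0.057 for NUSAP1, -0.0013 to 0.046 for CSNK2A1 and -0.015 to 0.12 for KMT5A. Fewer samples enter those fits, and the cause of the other changes was not tested. The level per kilobase of the union of exons was 791 for SMC2, 1169 for SMC4, 3184 for NCAPD2, 1020 for NCAPG and 787 for NCAPH. It was 520.5 for NCAPD3, 1083 for NCAPG2 and 821 for NCAPH2. These are lower than the main levels, since that length is longer. Deviations of same-numbered libraries from their group mean correlated at -0.156, 0.031 and -0.310 over 13141 genes. Those of differently numbered libraries correlated at -0.243 to 0.302. Deviations within groups of 3 constrain each other, so these values cannot decide whether the libraries were paired. With a replicate block, 1662 genes, the same 5 members, 5 partners and 1 other SMC subunit were called. The spread between the 3 libraries of a group was above the counting error for most members, but for NCAPG in the Flag-IPs it was 1.43% against a counting error of 1.66%.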

Other observations

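Markers of the labelled tissue were only partly seen. Of 5 epithelium markers, CDH1 and EPCAM were called higher in the HA-IPs, at log2 fold changes of 0.29 and 0.34 (limma, adjusted p = 0.017 and 0.0029), and the keratins KRT8, KRT18 and KRT19 had 0.13, 0.10 and 0.18 without passing. The list summed to 20555 to 21420 normalized counts in the Flag-IPs and 23580 to 23970 in the HA-IPs. Of 8 adult kidney markers, 4 were in the table. SLC12A1 and SLC34A1, transporters of the kidney tubule, had 26.8 to 120 normalized counts in the Flag-IPs and 1.10 to 5.94 in the HA-IPs, and LRP2, an endocytic receptor, was called higher in the HA-IPs with a log2 fold change of 0.29 (limma, adjusted p = 0.038). Of 4 kidney development markers, PAX2 and PAX8 were called higher in the Flag-IPs, with PAX8 at 0 in 1 HA-IP, and LHX1 and WT1 were not called.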
